A study of Mus musculus with 12 samples.

Results

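RNA levels were compared between KPC cells after 21 h and after 6 h of cisplatin (Cis). The comparison rests on 4 of the 12 libraries of the series, the 2 RNA-seq libraries of each time point, and covers all genes except Lars2, Tmem38b and Mettl26, which were taken out before rescaling. KPC is a mouse pancreatic ductal adenocarcinoma (PDAC) line from a model in which Pdx1-Cre switches on mutant Trp53 (LSL-R172H) in the pancreas, so every group carried that allele. The cells received 20 µM Cis for 6 or 21 h, and the study also holds 2 RNA-seq libraries of cells without treatment, whose duration in culture is not labelled, and ribosome footprint libraries of the same 3 groups. The study followed translation and RNA after chemotherapy, and the contrast of 21 h with 6 h asks what changed in the cells' RNA between an early and a late time on the drug. No untreated library is labelled with a matching duration, so time on the drug cannot be told apart from time in culture.

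Cis forms platinum crosslinks between DNA bases, which block DNA replication and transcription and start the DNA damage response. Cells under such stress are known to turn on immediate early genes, whose transcription needs no new protein, the p53 targets, and the integrated stress response (ISR), in which ATF4 and CHOP (Ddit3) drive genes of amino acid supply and recovery from stress. Pancreatic cancer cells also depend on EGF receptor signalling, cholesterol synthesis and glycolysis, which were followed here through lists of their genes.

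The 4 libraries held 1985344 to 2329158 reads. Of the reads, 56.5% to 56.6% at 6 h and 51.8% to 53.8% at 21 h fell on the 3 genes taken out, which left 862476 to 1075943 reads for all other genes. RNA levels are given below as scaled RPKM, the reads per kilobase of transcript, scaled to the total of the remaining reads after median-of-ratios scaling. The replicates correlated with a Pearson r of 0.966 at 6 h and 0.972 at 21 h across 9592 genes, which are not independent replicates. Krt8, Krt18, Krt19 and Cdh1, markers of epithelial cells, were well measured in all libraries, whereas Epcam and Cldn4 had at most 4 reads. The defining markers of leukocytes (Ptprc), macrophages (Adgre1) and endothelium (Pecam1, Cdh5) had 0 reads in all 6 RNA-seq libraries, and the summed scaled RPKM of 5 fibroblast markers was at most 1.25.

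Between 6 h and 21 h, 699 of the 9592 genes tested rose (7.29%) and 767 fell (8.00%) at a Benjamini-Hochberg adjusted p under 0.05 in limma. Their median log2 fold changes were 0.86 and -0.88, and the median of all genes was 0.01. A change of more than 1 on the log2 scale was passed by 253 of the genes that rose (2.64% of all tested) and by 325 of those that fell (3.39%). In every called gene both libraries at 21 h lay on the same side of both libraries at 6 h, while 29.5% of all genes tested had both 21 h libraries above and 28.5% both below. Against the untreated cells, 667 of the 699 genes had both 21 h libraries above both untreated ones, and 748 of the 767 had both below. A two-sided exact permutation test could not go below p = 0.333 with 2 libraries per time point, so single genes rest on the fit across all genes. No label says that replicates were separate cultures, and the p-values then measure only the spread between these libraries, which may be technical. Each 6 h or 21 h library mattered to the counts. The genes called higher numbered 428 and 405 without replicates 1 and 2 at 6 h, and 322 and 256 without replicates 1 and 2 at 21 h. Those called lower numbered 414, 408, 507 and 402 in the same order, each time with a lone library assumed to vary like the others. Where a gene list below has 0 calls in a direction, the number of its genes that pass an unadjusted p under 0.05 in that direction, and the number called by limma's voom on recovered reads, follow in that order.

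**Figure D1:**
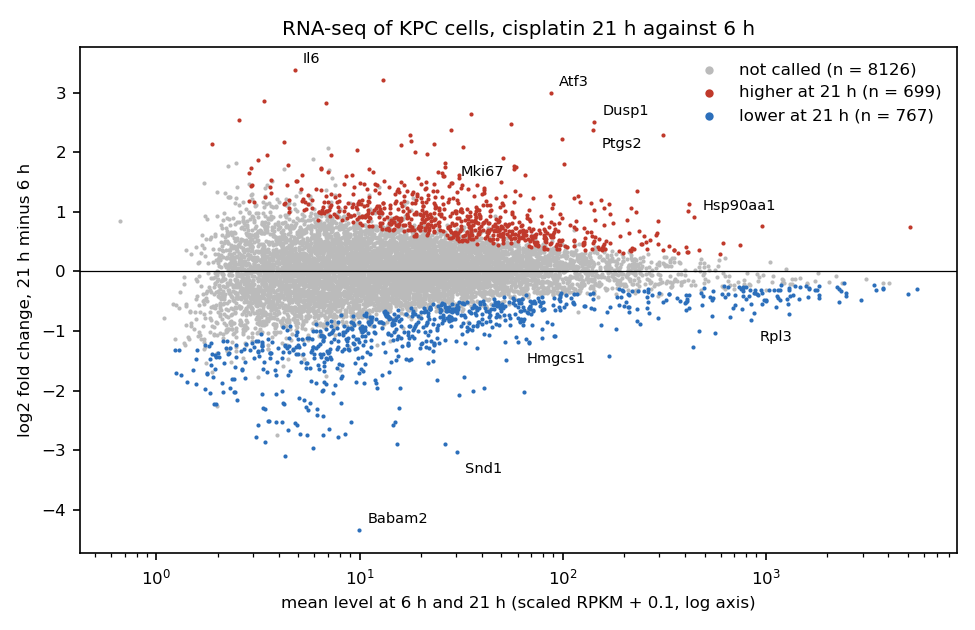
Log2 fold change of 9592 genes (21 h minus 6 h, vertical axis) against the mean scaled RPKM of the 4 libraries (horizontal log axis, 0.1 added). Each point is a gene, in red for the 699 called higher, in blue for the 767 called lower and in grey for the rest, and the smallest changes called lie at high levels.

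Immediate early genes and members of the AP-1 family of transcription factors rose together. Of 27 tested, 19 rose and 0 fell (0 unadjusted, 0 in voom), with a median log2 fold change of 1.23 beside 0.01 for all genes. Atf3, a stress-induced factor of the ATF family, was at 15.7 and 21.9 scaled RPKM in the 6 h libraries and at 144 and 167 in the 21 h libraries. Its log2 fold change was 2.99 ± 0.21 (SE, adjusted p = 0.000115), and the untreated libraries (10.8 and 15.8) were near the 6 h level. Jun, the core AP-1 subunit, went from 10.1 and 8.07 to 59.1 and 63.9 scaled RPKM, a change of 2.63 ± 0.19 (adjusted p = 0.000115). Its partner Fos went from 9.86 and 7.04 to 52.4 and 42.8 scaled RPKM. In the untreated libraries Fos was at 3.82 and 2.47, so that its level was ordered untreated, 6 h and 21 h without overlap. Fosb, a second Fos family member, had 0 reads in both untreated libraries, 6 and 1 at 6 h and 48 and 53 at 21 h. Egr1, a growth factor-induced zinc finger factor, stood at 12.9 and 20.1 scaled RPKM at 6 h and at 94.5 and 93.8 at 21 h, a change of 2.48 ± 0.21 (adjusted p = 0.000267). The list kept 11 of its 19 calls without replicate 2 at 21 h, and 10 genes, those named here among them, stayed called without each library in turn. The footprints of 26 of the genes had a median change of 1.02.

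Genes that restrain growth factor and stress kinase signalling rose beside them. Dusp1, a phosphatase of p38, JNK and ERK, was at 35.4 and 49.2 scaled RPKM at 6 h and at 257 and 227 at 21 h (log2 fold change 2.51 ± 0.23, adjusted p = 0.000321), and Spry2, an inhibitor of receptor tyrosine kinase signalling, went from 14.4 and 14.2 to 39.9 and 44.2. In all, 5 of 13 MAPK feedback genes rose and 0 fell (1 unadjusted, 0 in voom), with a median of 0.38, and without replicate 1 at 6 h 3 of the calls were kept. Among 6 genes of the EGF receptor family and its ligands 3 rose, all of them ligands, and 0 fell (0 unadjusted, 0 in voom). Areg was at 37.1 and 53.7 scaled RPKM at 6 h and at 157 in both libraries at 21 h, Ereg at 27.4 and 24.0 against 85.6 and 94.5, and Hbegf at 37.9 and 27.5 against 81.2 and 87.0. The log2 fold changes of the ligands were 1.79, 1.77 and 1.35, and all were called without each library in turn. The levels at 21 h were above both untreated libraries for each ligand. Regulators of mRNA decay, which shorten the life of early response mRNAs, had 5 of 9 members higher and 0 lower (0 unadjusted, 0 in voom) and a median of 0.73, among them Tob2 at 13.9 and 16.7 scaled RPKM at 6 h and 31.6 and 30.1 at 21 h. Zfp36 (tristetraprolin), which binds AU-rich elements, rose by 1.45 on the log2 scale, a call that was lost without replicate 2 at 21 h. Zfp36l1 rose by 0.89.

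A cAMP response element (CRE), the palindrome TGACGTCA bound by CREB and ATF family factors, lay in the promoters of Dusp1, Btg2, Maff and Areg, all called higher. Btg2, an antiproliferative p53 target and an activator of mRNA deadenylation, was at 3.79 and 7.21 scaled RPKM at 6 h and at 32.7 and 27.0 at 21 h. The stretches around the motif are printed because they belong to genes of the groups above. They are RefSeq sequences on GRCm38.p6, found by symbol, 5′ to 3′ on the strand of the gene, with the motif in capitals.
Dusp1, chr17:26508588-26508635, minus strand: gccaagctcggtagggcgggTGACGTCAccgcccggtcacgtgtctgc
Btg2, chr1:134079294-134079341, minus strand: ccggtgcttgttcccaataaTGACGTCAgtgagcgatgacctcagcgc
Maff, chr15:79347471-79347518, plus strand: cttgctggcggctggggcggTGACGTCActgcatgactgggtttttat
Areg, chr5:91139518-91139565, plus strand: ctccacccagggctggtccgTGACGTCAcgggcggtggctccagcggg
A promoter window (250 bases before to 50 after the start) was found for 7810 of the 9592 genes. Here and below, motif letters were searched on both strands and only in the 250 bases before the start. The CRE letters were in 3.23% of these windows, in 6.93% of the 592 windows of genes called higher and in 1.68% of the 595 of genes called lower. They were not confined to groups that rose, as 6 ribosomal protein genes, a list in which 0 rose, also carried them. A match describes the letters only. No factor's binding was measured.

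**Figure D2:**
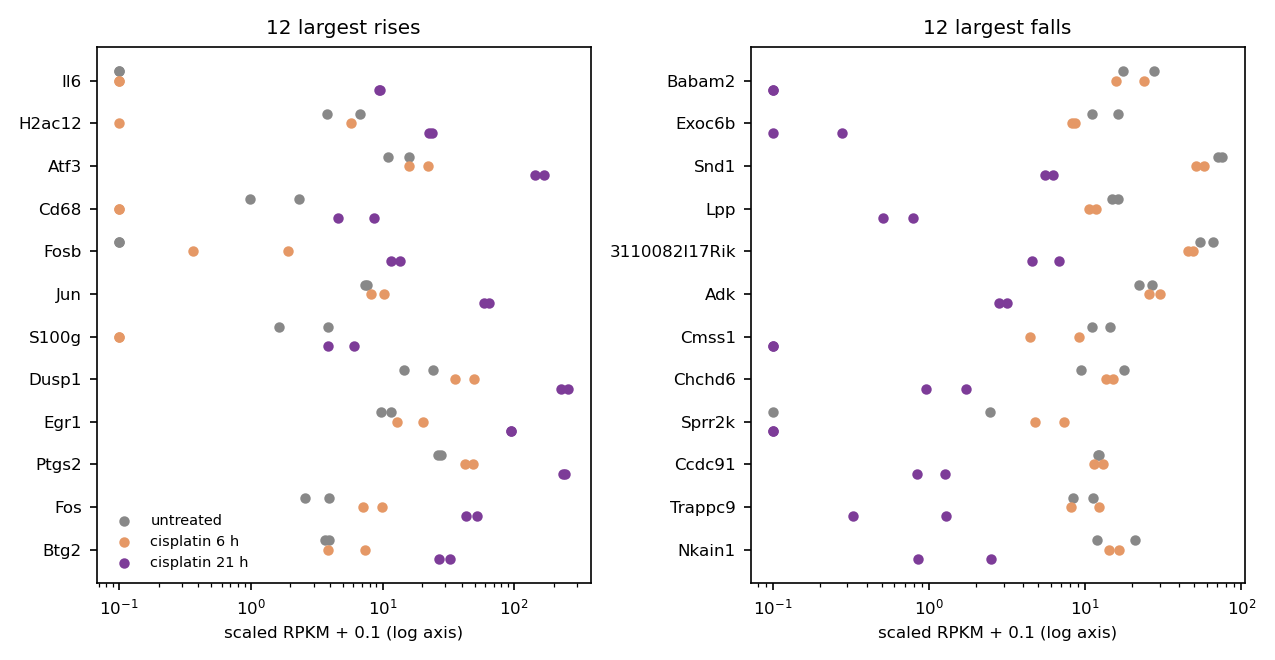
Scaled RPKM (0.1 added, log axis) of the 12 genes with the largest rise (left) and the largest fall (right) between 6 h and 21 h, with 1 point per library in grey for untreated, orange for Cis 6 h and purple for Cis 21 h. The genes were chosen as called and without overlap between 6 h and 21 h, and libraries with 0 reads sit at the left edge.

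Inflammatory genes were among the largest rises. Il6, the cytokine interleukin-6, had 0 reads in the untreated and 6 h libraries and 12 and 11 reads at 21 h, at least 3.33-fold higher (against a floor of 3 reads per library). Ptgs2 (COX-2), the inducible prostaglandin synthase, was at 42.0 and 48.4 scaled RPKM at 6 h and at 243 and 234 at 21 h, and its change of 2.38 ± 0.12 (adjusted p = 1.58e-05) was large against its spread. The neutrophil chemokines Cxcl1 and Cxcl3 rose by 1.27 and 1.24. Cxcl1 was at 65.4 and 72.7 scaled RPKM at 6 h and at 162 and 173 at 21 h, and Cxcl3 at 15.9 and 17.5 against 41.9 and 39.7. Of 34 NF-kB targets, cytokines and chemokines, 10 rose and 1 fell (median 0.60), of which 5 rises were kept without replicate 2 at 6 h. The macrophage and lysosome marker Cd68, which is no member of that list, had 0 reads at 6 h and 5 and 9 at 21 h, at least 2.05-fold higher. As given above, Ptprc and Adgre1 had 0 reads in all libraries, and Csf1r had at most 2. The summed scaled RPKM of the listed immune markers was 0.888 to 2.21 in untreated libraries, 0 at 6 h and 4.49 to 8.99 at 21 h. Of the sums at 21 h, Cd68 gave 4.49 and 8.58, and Csf1r gave 0.409 in replicate 2. The samples were a cultured tumour line, and the part of immune cells in these rises was not tested. In bulk RNA, fewer cells of a kind and less RNA per cell cannot be told apart.

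Of 37 interferon-stimulated genes tested, 0 rose (1 unadjusted, 0 in voom) and 5 fell (13.5%, beside 8.00% of all genes), with a median of -0.12. Ifit3, an antiviral effector, was at 82.7 and 77.1 scaled RPKM at 6 h and at 28.5 and 46.8 at 21 h, a fall by 1.11 ± 0.20 (adjusted p = 0.00684). It shares sequence with Ifit3b (-0.80), so reads may have been split between them. Ifit3 alone stayed called without replicate 2 at 6 h, and 0 of the 5 without the variance trend in limma. Of 8 genes of the cGAS-STING pathway 0 rose (1 unadjusted, 0 in voom) and 0 fell (0 unadjusted, 0 in voom). Tbk1, the kinase downstream of STING, was the 1 gene under the unadjusted threshold (0.52, adjusted p = 0.126), and Cgas, the DNA sensor, was at 7.13 and 7.09 scaled RPKM at 6 h and 9.39 and 10.4 at 21 h (0.43, adjusted p = 0.263). Sting1 was below the filter on low levels. Cxcl10, a chemokine target of STING, stood at 63.3 and 83.2 scaled RPKM at 6 h and at 107 and 100 at 21 h (0.50, adjusted p = 0.0508), and Ccl5 at 60.8 and 68.8 against 57.9 and 61.4 (adjusted p = 0.56). Cxcl10 was called higher under some alternatives, among them voom and a mean RPKM of at least 10, and not under others. These values are of RNA only. The footprints of Cgas and Ccl5 were called higher (1.03 and 0.94), while those of the 8 pathway genes had a median change of 0.06, with 4 above 0.

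ISR targets rose in part. Of 31 tested, 8 rose and 0 fell (3 unadjusted, 3 in voom), with a median of 0.30. Without replicate 2 at 6 h 7 of the 8 calls were kept. Ddit3, the proapoptotic factor CHOP, went from 27.3 and 43.4 scaled RPKM at 6 h to 175 and 152 at 21 h (2.21 ± 0.26, adjusted p = 0.000988), while the untreated libraries were at 23.1 and 40.1. Ppp1r15a (GADD34), which recruits the phosphatase that reverses eIF2α phosphorylation, went from 14.0 and 15.5 to 44.2 and 49.9. Atf4, whose control is chiefly translational, rose by 0.59 in RNA (182 and 217 against 308 and 294 scaled RPKM), and its footprint change was 1.81. The stress factor Nupr1 and the alanyl-tRNA synthetase Aars rose by 1.08 and 1.02. The C/EBP-ATF response element, written TGATGNAA and bound by ATF4 with its partners, was in the promoter windows of 8 of 27 ISR targets with a window (29.6%) and in 2.34% of all windows. It is shown for the pair of carriers that rose, with the element in capitals as it reads on the strand of the gene.
Nupr1, chr7:126625553-126625600, minus strand: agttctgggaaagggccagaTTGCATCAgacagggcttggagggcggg
Aars, chr8:111033710-111033757, plus strand: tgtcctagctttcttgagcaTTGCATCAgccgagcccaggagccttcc
Both hold the element in the reverse orientation, 110 and 112 bases before the start. The other ISR targets with the element were not called, and a link between the element and the rise was not tested.

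The unfolded protein response (UPR) of the endoplasmic reticulum (ER) showed no common direction. Of 26 UPR, chaperone and ERAD genes, 2 rose and 2 fell (median -0.08), 7.69% each and near the 7.29% and 8.00% of all genes. Hspa5 (BiP), the main ER chaperone, went from 174 and 189 scaled RPKM at 6 h to 268 and 317 at 21 h (0.68 ± 0.11, adjusted p = 0.00409). Xbp1, the transcription factor whose mRNA IRE1α splices, went the other way, from 54.9 and 45.2 to 27.6 and 24.1 (-0.92 ± 0.18, adjusted p = 0.01), a call lost without replicate 1 at 6 h or replicate 2 at 21 h. Ern1, which codes for IRE1α, was at 6.15 and 7.69 scaled RPKM at 6 h and at 5.35 and 6.36 at 21 h, with overlapping groups (-0.21 ± 0.25, adjusted p = 0.619). The other ER stress sensors were Eif2ak3 (PERK) with a change of -0.09 (adjusted p = 0.872) and Atf6 with -0.76 (adjusted p = 0.0572). Atf6 was called lower under voom and under none of the other alternatives. In the heat shock response, which serves the cytosol, Hsp90aa1 rose from 300.3 and 317 to 578 and 583 scaled RPKM and Hspa8 fell from 1651 and 1574 to 975 and 994.

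Of 25 p53 targets, 8 rose and 0 fell (2 unadjusted, 0 in voom), and their median was 0.08 beside 0.01 for all genes. That median moved with the processing, to 0.24 with the deposited RPKM, 0.30, 0.45 and 0.43 without replicate 1 at 6 h, replicate 2 at 6 h and replicate 2 at 21 h, and 0.68 in genes with a mean RPKM of at least 10. The cell cycle inhibitor Cdkn1a (p21) was at 25.5 and 18.1 scaled RPKM at 6 h and at 74.0 and 45.7 at 21 h, with untreated libraries at 20.2 and 20.0. Pmaip1 (NOXA), a BH3-only protein that promotes apoptosis, went from 11.9 and 11.6 to 41.8 and 35.9 (1.64 ± 0.19, adjusted p = 0.00081). It belongs to the BCL2 family, in which 1 of 13 genes rose and 1 fell (7.69% each, near the 7.29% and 8.00% of all genes). The fall was antiapoptotic Bcl2l1 (BCL-XL; -0.52, adjusted p = 0.043), a call lost in 11 of the alternative analyses, among them those without any 1 of the 6 libraries. The polo-like kinases Plk2 and Plk3 rose by 1.67 and 1.52, and Gadd45a, a stress sensor that acts on p38, by 2.14. The 5 genes were called without each library in turn, as were 6 of the 8 on the list.

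**Figure D3:**
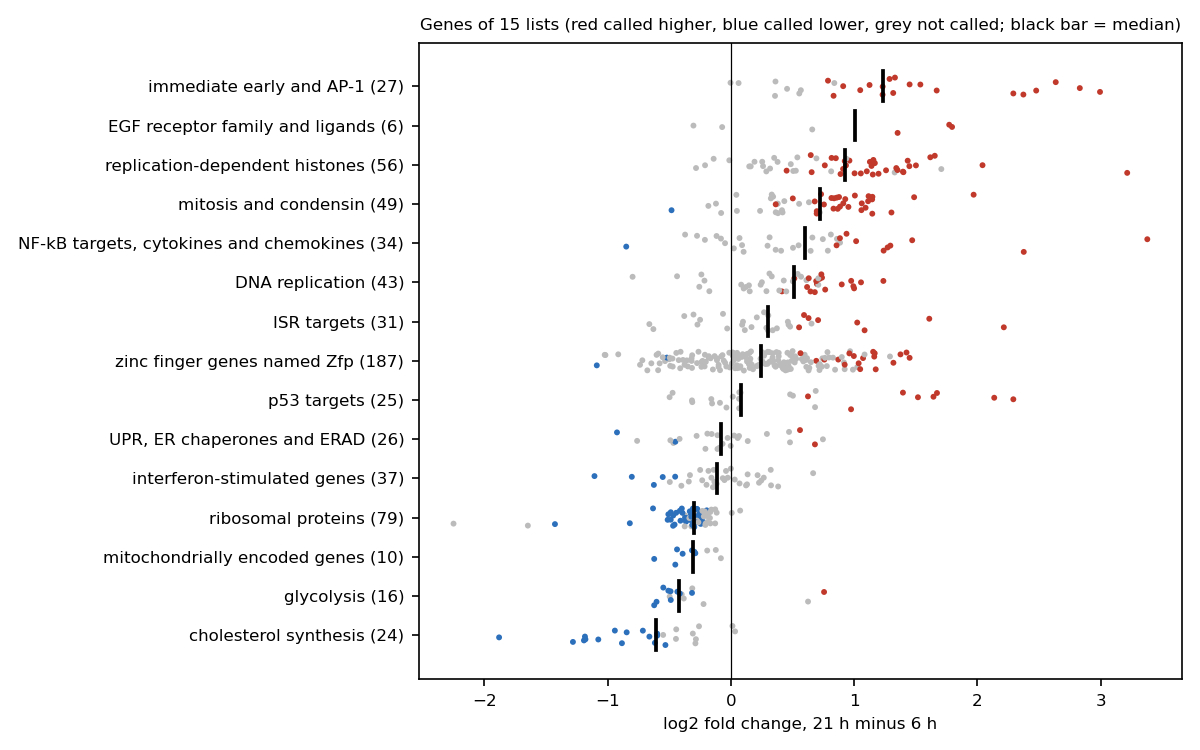
Log2 fold changes (21 h minus 6 h, horizontal axis) of the tested genes of 15 lists, with the number tested beside each name. Points are genes (red called higher, blue called lower, grey not called) and the black bar is the median, which runs from 1.23 for immediate early genes to -0.61 for cholesterol synthesis.

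Cell cycle genes were higher at 21 h. Of 49 genes of mitosis and condensin 29 rose and 1 fell (median 0.72), and of 43 genes of DNA replication 18 rose and 0 fell (1 unadjusted, 0 in voom; median 0.52). Mki67, the proliferation marker Ki-67, was at 15.0 and 14.1 scaled RPKM at 6 h and at 40.6 and 44.6 at 21 h (1.49 ± 0.17, adjusted p = 0.000782), and the untreated libraries were at 13.4 and 13.7. Ndc80, of the kinetochore, went from 7.35 and 8.99 to 34.1 and 35.4 and Bub1, a spindle checkpoint kinase, from 19.3 and 17.9 to 40.0 and 45.0. Cdc6, which loads the MCM helicase, went from 27.1 and 28.2 to 64.8 and 68.3, and the flap endonuclease Fen1 from 36.0 and 38.4 to 77.8 and 72.9. All of the 29 mitosis genes and all of the 18 replication genes had both 21 h libraries above both untreated ones, as had 667 of all 699 genes that rose. At 6 h, 14 of the 29 mitosis genes had both libraries below both untreated ones and 8 had both above, and of the 18 replication genes 0 were below and 10 above, while of all 699 genes that rose 210 were below and 187 above. The difference between the lists was not tested. Ndc80 was an example, with untreated libraries at 11.0 and 15.9. The 1 gene of the mitosis list that fell was Cenpa, the centromeric histone (-0.48), named here after its value was seen. Its call was lost without replicate 1 at 6 h and without the variance trend, and its footprints were called higher (0.34, limma adjusted p = 0.0213). Of the rises, 17 in mitosis and 6 in replication were kept without replicate 2 at 21 h.

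Replication-dependent histones, which package new DNA in S phase, rose as well. Of 56 genes, 33 rose and 0 fell (1 unadjusted, 0 in voom), with a median of 0.93, and voom called 26 of the 56 higher. H2bc8 was at 28.0 and 35.2 scaled RPKM at 6 h and at 104 and 93.3 at 21 h (1.62 ± 0.14, adjusted p = 0.000293), and its neighbour H2ac8 at 21.3 and 18.3 against 56.6 and 54.6. At 6 h, 22 of the 33 had both libraries below both untreated ones and 0 had both above, beside the 210 and 187 of 699 given for all genes that rose, and H2bc8 was among the 22 (50.7 and 50.6 untreated). At 21 h, 26 of the 33 were above both untreated libraries and 7 overlapped them. H2ac12 had the second largest rise of all genes (3.21) on 2 and 0 reads at 6 h and 10 and 10 at 21 h, a ratio of 8.75 with a 95% counting interval of 2.13 to 77.2, and its call was lost without replicate 1 or 2 at 21 h. Many histone genes are near-identical copies and reads may have been split among them, so single members are uncertain. Without replicate 1 at 21 h 18 of the 33 calls were kept.

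The promoters of H2A and H2B genes that lie head to head are shared, and they hold the octamer ATTTGCAT known from H2B promoters, here in capitals. The octamer was in 12 of 51 histone windows (23.5%) and in 1.55% of all windows, and H2ac8 with H2bc8 and H2ac12 with H2bc12 are 2 pairs that share a single copy, which counts in both windows. Each pair is printed once, on the strand of the H2B gene.
H2bc8 with H2ac8, chr13:23571321-23571368, plus strand: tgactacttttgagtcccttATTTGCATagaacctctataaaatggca
H2bc12 with H2ac12, chr13:22035771-22035818, plus strand: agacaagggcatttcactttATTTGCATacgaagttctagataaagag
H2bc12 was called higher (adjusted p = 0.0476) on 19 and 6 reads at 6 h and 39 and 33 at 21 h, a call lost in 11 of the alternative analyses. The box CCAAT was in 43 of the 51 histone windows (84.3%), in 31 of 42 windows of mitosis genes (73.8%) and in 41.1% of all windows. It was not particular to lists that rose, as 20 of 22 windows of UPR, chaperone and ERAD genes held it (90.9%). Among genes called higher 48.0% of windows held it, and among genes called lower 37.6%.

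Genes of DNA repair were followed by pathway, since Cis damages DNA. Of 23 genes of nucleotide excision repair, which removes platinum adducts, 0 rose (3 unadjusted, 1 in voom) and 0 fell (1 unadjusted, 0 in voom), and their median was -0.02. The damage-binding subunit Ddb1 was at 140 and 121 scaled RPKM at 6 h and 122 and 135 at 21 h, and Rad23b at 118 and 115 against 119 and 99.6. Of 33 genes of the Fanconi pathway, homologous recombination and translesion synthesis, 6 rose and 1 fell (median 0.35). Rad51ap1, a cofactor of homologous recombination, went from 16.1 and 13.2 to 37.3 and 34.9 and Brca2 from 5.06 and 4.98 to 11.5 and 12.1. Without replicate 2 at 21 h Rad51ap1 alone stayed called among the rises. The 1 fall was Babam2 (BRE), a subunit of the BRCA1-A complex and the largest fall of all genes, with 19 and 34 reads at 6 h and 0 in both libraries at 21 h, at least 9.93-fold lower. Its untreated libraries had 43 and 33 reads.

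Genes that span long stretches of the genome fell the most. The genomic span, from RefSeq on GRCm38.p6, was found for 9544 of the 9592 genes (99.5%) and was used as a length only. Of the 12 largest falls, 10 spanned more than 100 kb, and of the 12 largest rises 0 did. Snd1, a component of the RNA-induced silencing complex, spans 455 kb and went from 57.7 and 51.1 scaled RPKM at 6 h to 5.46 and 6.07 at 21 h (-3.03 ± 0.15, adjusted p = 1.58e-05). Lpp, a focal adhesion protein, spans 599 kb and went from 11.6 and 10.5 to 0.41 and 0.684. Adk, adenosine kinase, spans 396 kb and went from 29.8 and 25.5 to 3.05 and 2.70. The untreated libraries were at 75.4 and 71.0 for Snd1 and 26.6 and 22.1 for Adk, near or above the 6 h levels. Exoc6b, an exocyst subunit of 452 kb, had 38 and 47 reads at 6 h and 0 and 1 at 21 h, a ratio of 97.2 with a 95% counting interval of 17.0 to 3882. The exceptions among the 12 were Nkain1 (44.1 kb) and Sprr2k (1.35 kb), the latter on 4 and 3 reads at 6 h and lost without replicate 1 at 6 h or replicate 2 at 21 h.

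Across all genes the fall set in with the longest spans. In 5 equal classes of span, the median log2 fold change was 0.05, 0.13, 0.09 and 0.04 in the first 4 and -0.33 in the longest class (from 62.2 kb). In that class 26 of 1909 genes rose (1.36%) and 386 fell (20.2%). Of the 721 genes from 100 to under 200 kb, 6 rose and 150 fell (median -0.40), and of the 288 genes of 200 kb and over, 2 rose and 149 fell (51.7%, median -1.11). The risers were Lmo7 (205 kb, 1.04) and Pde4b (520 kb, 1.08), named after their values were seen. Genes of long span had lower levels (a median of 3.94 scaled RPKM at 200 kb and over), so the medians were also taken within classes of level. Between 2 and 10 scaled RPKM the median was -0.58 at 100 kb and over and 0.06 under 100 kb, between 10 and 50 it was -0.46 and 0.08, and from 50 upwards, with 25 long genes, -0.40 and 0.01. The length of the mature transcript gave smaller differences, with medians of 0.00, 0.05, 0.04, 0.03 and -0.08 in 5 equal classes. The footprints of genes of 200 kb and over had a median change of -1.14. These are descriptions across genes, which are not independent replicates.

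**Figure D4:**
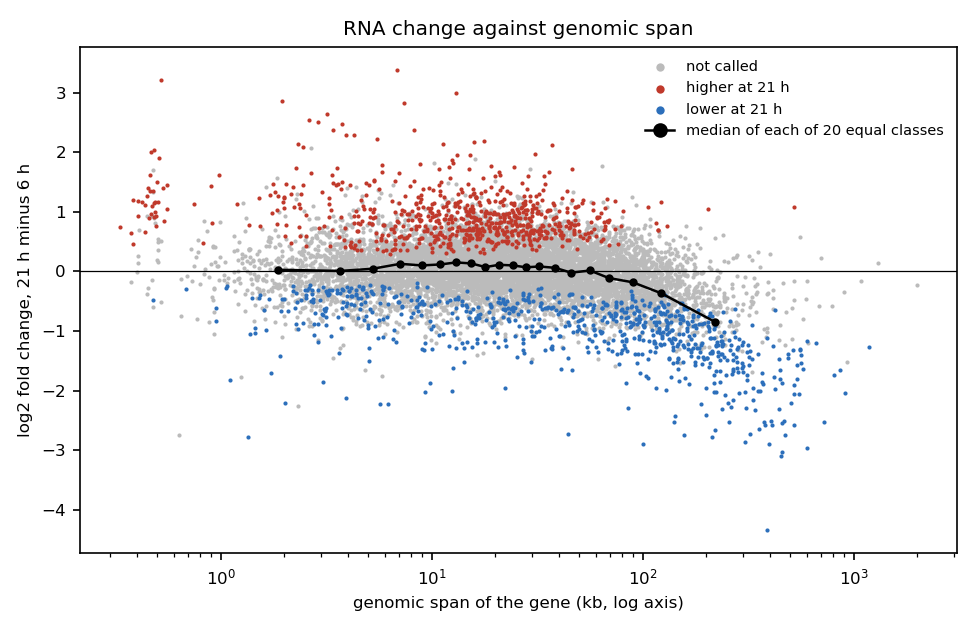
Log2 fold change (21 h minus 6 h, vertical axis) against the genomic span of the gene in kb (log axis) for 9544 genes, in red called higher, in blue called lower and in grey not called. The black line joins the medians of 20 equal classes of the genes, and it stays near 0 up to about 50 kb and falls in the genes of longest span.

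Cholesterol synthesis fell as a list. Of 24 genes, 15 fell and 0 rose (0 unadjusted, 0 in voom). The median change was -0.61 in RNA and -0.86 in footprints. Hmgcs1, which makes HMG-CoA, was at 80.4 and 88.5 scaled RPKM at 6 h and at 38.2 and 34.7 at 21 h (-1.19 ± 0.12, adjusted p = 0.000505). Idi1, the isopentenyl diphosphate isomerase, went from 92.0 and 98.7 to 42.2 and 40.6. The squalene synthase Fdft1 went from 26.9 and 30.2 to 11.6 and 10.7, and Mvd, which decarboxylates mevalonate diphosphate, had the largest change of the list (-1.88). All of the 15 were below both untreated libraries at 21 h, as were 748 of all 767 genes that fell. Of the 15 calls, 8 were kept without replicate 2 at 21 h. Hmgcs1 carried the sterol regulatory element letters TCACNCCAC, found in 1.23% of all windows, on the strand of the gene, in capitals.
Hmgcs1, chr13:119690194-119690242, plus strand: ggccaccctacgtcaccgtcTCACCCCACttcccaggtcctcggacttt
A share over the list is void, since 16 of its 24 genes had a promoter window, fewer than 80%.

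Glycolysis also fell, with 9 of 16 genes lower and 1 higher (median -0.42). Pgk1, phosphoglycerate kinase, was at 1381 and 1335 scaled RPKM at 6 h and at 994 and 803 at 21 h (-0.60 ± 0.09, adjusted p = 0.0038). Gapdh, often used to normalise, went from 1150 and 1119 to 886 and 679 scaled RPKM (-0.55). The 1 rise was the muscle isoform of phosphofructokinase, Pfkm (0.76), a call lost in 11 of the alternative analyses. Of the 9 falls, 5 were kept without replicate 2 at 21 h and 0 without the variance trend in limma, and Gapdh was also lost under quantile normalization. The epithelial keratin Krt19 fell by 0.63 and Krt8 by 0.40, the latter a call lost without replicate 1 at 6 h, while Krt18 was at 972 and 1008 at 6 h and 1148 and 1073 at 21 h (adjusted p = 0.119). The metallothionein Mt1 fell by 1.04, from 730 and 777 to 422 and 317. Of 21 NRF2 targets, 3 rose and 4 fell, among them Osgin1 with 1.30 and the transporter Abcc1 with -0.84.

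Ribosomal protein mRNAs fell by small steps. Of 79 tested, 47 fell and 0 rose (0 unadjusted, 0 in voom). The median change was -0.30 and stayed below 0 in every alternative, between -0.34 and -0.05. Rpl3, of the large subunit, was at 1122 and 1044 scaled RPKM at 6 h and at 633 and 594 at 21 h (-0.82 ± 0.07, adjusted p = 0.000261). At 21 h all of the 47 were below both untreated libraries, beside 748 of the 767 genes that fell. Without replicate 1 at 6 h 19 of the 47 calls were kept, and without the variance trend in limma 2. Ribosomal protein genes have many processed pseudogenes, which could take or give reads. The median change of their footprints was 0.09. Rpl36a (-0.49 in RNA) had footprint RPKM of 577 and 582 at 6 h and 833 and 1008 at 21 h.

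For mRNAs encoded in the mitochondrial genome, RNA and footprints had opposite signs. Of 10, 7 fell in RNA and 0 rose (0 unadjusted, 0 in voom), with a median of -0.31, while the median footprint change was 0.81. mt-Nd4l, a subunit of complex I, was at 498 and 523 scaled RPKM in RNA at 6 h and at 317 and 346 at 21 h (-0.62 ± 0.08, adjusted p = 0.00119), with a footprint change of 1.15 (adjusted p = 0.00016). mt-Nd2 changed by -0.39 in RNA and 0.97 in footprints. Without replicate 2 at 6 h mt-Nd4l alone stayed called in RNA, and without the variance trend in limma 0 of the 7 did (mt-Nd4l at an adjusted p of 0.0545). Nuclear genes of the respiratory chain and ATP synthase, with 2 of 78 higher and 2 lower, and of the mitochondrial ribosome, with 4 of 78 higher and 2 lower, were below the 7.29% and 8.00% of all genes.

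Footprints, counted in separate libraries of the same groups and tested in the same way (9707 genes, of which 16.3% were called higher and 16.7% lower), mostly had the sign of the RNA change. By the study's methods both assays were made from the same lysates, so they share effects of culture and lysis and are not independent samples. Of 691 genes that rose in RNA and were tested in footprints, 644 had a higher footprint level (93.2%), 487 were also called higher and 4 were called lower. Of 745 that fell, 665 had a lower footprint level (89.3%), 517 were called lower and 25 were called higher. Of all 9220 genes tested in both, 72.8% had the same sign. The 25 held 6 mRNAs of the mitochondrial genome besides mt-Nd4l, ribosomal proteins such as Rpl36a, the ferritin light chain Ftl1 and the elongation factor Eef2. The 4 in the other corner included Rbm39 and Rsrc2, both of the splicing machinery, and S100g, which had at most 3 RNA reads in a library. Rsrc2 went from 22.4 and 22.3 scaled RPKM in RNA to 65.3 and 53.6 (1.36). Ftl1, Eef2, Rbm39 and Rsrc2 are named here for standing in the opposite corners, after their values were seen. Of 34 SR proteins, hnRNPs and CLK kinases, 2 rose in RNA (5.88%) and 3 fell (8.82%), near the 7.29% and 8.00% of all genes. The splicing kinase Clk1 and the SR protein Srsf5 rose by 1.75 and 0.80, with footprint changes of 1.31 and 0.32, and Hnrnpd, Hnrnpa3 and Hnrnpa0 changed by -0.83, -0.54 and -0.50, with footprint changes of -0.20, -0.71 and -0.62. Hnrnpa0 was lost without replicate 2 at 6 h, either replicate at 21 h or the variance trend, and Hnrnpa3 without the variance trend or under quantile normalization.

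**Figure D5:**
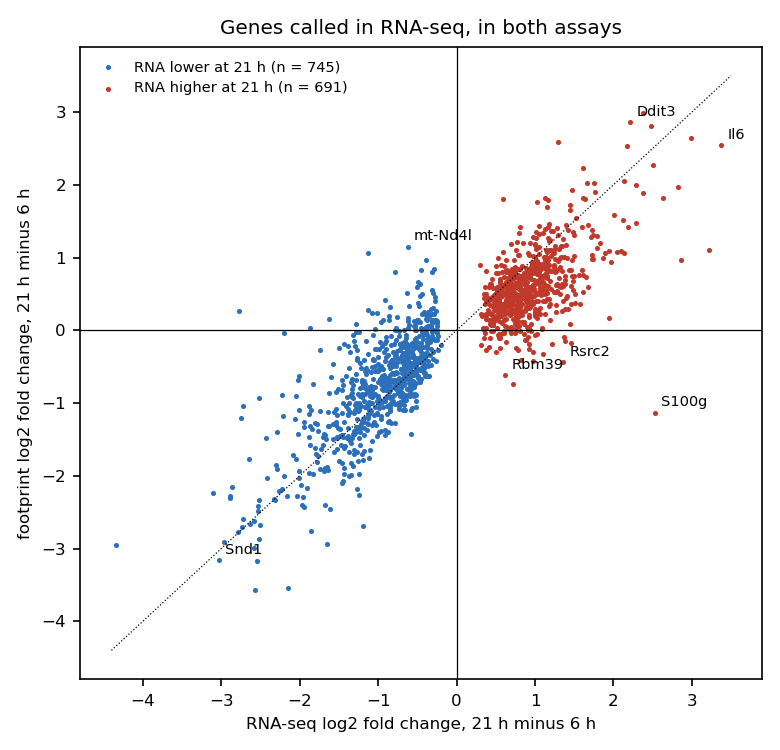
Footprint log2 fold change (vertical axis) against RNA-seq log2 fold change (horizontal axis), both 21 h minus 6 h, for the 691 genes called higher (red) and the 745 called lower (blue) in RNA-seq that were also tested in footprints. The dotted line marks equal changes, and most points lie in the lower left and upper right corners.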

How the data were processed

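RNA-seq and ribosome footprints were measured in KPC cells without treatment and after Cis for 6 h and 21 h, with 2 libraries per assay and group. Groups and replicate numbers come from the labels, and the dose and the genotype of the line from the study's methods. The RPKM values deposited by the authors are given per library and gene, over the transcript for RNA-seq and over the coding sequence for footprints, without pooling. The submitters' processing notes name cutadapt, STAR and GRCm39, without versions. The files leave out transcripts without a read, which count as 0 here. RPKM multiplied by length gave whole reads for 100% of values (tolerance 0.01), and from these the depth of 1985344 to 2901692 reads in the 6 RNA-seq libraries. Reads carry no molecular identifiers used here, so floors (3 reads) and intervals (95%) cover counting error only.

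Lars2, Tmem38b and Mettl26 were removed, RPKM was rescaled to the remaining reads and by median-of-ratios factors, genes with a mean of at least 2 over the 6 libraries were kept, and limma 3.58.1 (R 4.3.3) was run on log2(RPKM + 1) (3 group means, eBayes with a trend) for the contrast of 21 h minus 6 h, two-sided, with Benjamini-Hochberg adjustment at 0.05. Log2 fold changes on this scale understate the changes of low genes. Footprints were fitted in the same way on their own. Replicate numbers did not pair the libraries (correlations of deviations of -0.0036, -0.0038 and 0.0147). The contrast and the 36 gene lists were chosen with earlier results of these data known. Genes named in the text are the 12 largest rises and falls that were called and without overlap, up to 6 called members of each list (or the 2 of highest level where none was called), genes the study discusses, and others where the text says so, and some items are not reported here. Alternatives were other pseudocounts, filters, scalings, spread models, voom, a replicate block, a fold limit and leaving out each library. On simulated reads for this contrast, 13.6% of 198 genes changed by 1 on the log2 scale were called among 9573 tested, 90.2% of 193 changed by 2 among 9564 tested (with 6 false calls), and 0 with no gene changed. Spans and promoters are from RefSeq on GRCm38.p6, found by symbol. Python 3.11.15 with numpy 2.4.6, pandas 2.3.3 and matplotlib 3.10.9 served for summaries and plots.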

Additional observations from a re-analysis of the deposited data

How the results depend on the processing

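The counts of genes higher and lower stayed within 1.5 times of 699 and 767 under other pseudocounts, a mean RPKM of at least 1 or 10, no factors, the deposited RPKM with all genes, quantile normalization, voom, the 4 libraries alone and the replicate block (624 higher and 706 lower). They moved further without a filter on low levels (436 and 496), without the variance trend (326 and 407) and with a log2 fold change above 1 required (253 and 325). Leaving out a library in turn gave 256 to 582 higher and 402 to 618 lower, and 607 to 1088 called genes with the same sign in footprints (1309 with all libraries, 672 without the trend). Scaling without factors turned the split to 797 higher and 712 lower, and quantile normalization to 554 and 709.

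Of 151 named genes that were called, 70 stayed called under every alternative run for them (18 at most), 48 were lost under 1 to 4 and 33 under 5 or more, with 0 changes of sign. Atf4, Hspa5, Krt19, Krt8 and Srsf5 were among the calls lost without the variance trend. Of 13 named and not called, 2 were gained under an alternative, Cxcl10 and Atf6. No label says whether the same replicate numbers mark shared cultures, and in the replicate block 594 of the 699 and 682 of the 767 calls were kept. At this depth genes changed by 1 on the log2 scale were mostly missed in simulated data, and a gene not called is not shown to be unchanged. The cause of the moved counts was not tested, except that leaving out a library leaves fewer samples and that no filter on low levels tests more genes.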

Other observations

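Among 187 genes named Zfp, which code for zinc finger proteins, 18 rose (9.63%) and 2 fell (1.07%), beside 7.29% and 8.00% of all genes. Their median log2 fold change was 0.24 beside 0.01 for all genes tested. Zfp655 was at 13.2 and 9.40 scaled RPKM at 6 h and at 29.8 and 31.4 at 21 h (1.38 ± 0.22, limma adjusted p = 0.00456). Without replicate 2 at 21 h 3 of the 18 rises were kept. Of 20 checkpoint kinases and mediators 3 rose and 0 fell (0 at an unadjusted p under 0.05, 0 in voom), among them Timeless (0.82), and none of the 3 was kept without replicate 2 at 6 h. Of 14 genes of YAP-TEAD and its targets 2 rose and 1 fell. Ccn1, a matricellular target, was at 19.5 and 14.2 scaled RPKM at 6 h and at 44.4 and 42.3 at 21 h, and the receptor kinase Axl fell from 150 and 160 to 101 and 107. Of 34 genes of ribosome biogenesis 2 rose (5.88%, below the 7.29% of all genes), Nop14 (0.69) and Nop58 (0.68), and 0 fell (6 at an unadjusted p under 0.05, 3 in voom). Of 6 genes of mesenchymal transition 2 fell, Cdh2 (-0.92) and Vim (-0.47). The call of Cdh2 was lost in 6 of the alternative analyses, among them those without either replicate at 6 h or at 21 h. Vim was lost under quantile normalization and without the variance trend in limma. Cdh2 spans 220 kb, and of all genes of 200 kb and over 51.7% fell.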
